A study of Chlorocebus sabaeus with 4 samples.

Results

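The genes described here encode enzymes and membrane proteins of the lysosome, 51 in all, listed by symbol as proteases, glycosidases, sulfatases, lipid hydrolases with their activators, phosphatases, membrane proteins and subunits of the proton pump. Of the 51, 49 had a probe set with a single gene symbol on the arrays and 2, GLB1 and ACP5, were not analysed here. The 49 stand among 19775 genes measured, and each is given by its brightest probe set. Log2 signal is used throughout, so that a difference of 1 is 2-fold, and the level of 1 gene is not set against that of another, since probe sets differ in brightness.

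The lysosome is the acidic compartment in which cells break down proteins, glycans and lipids taken up from outside or delivered by autophagy. Its hydrolases work at a low pH that a multi-subunit proton pump, the V-ATPase, maintains, and heavily glycosylated membrane proteins line its wall. In the ovary, lysosomal enzymes take part in the freeing of cholesterol for steroid synthesis and in the breakdown of the corpus luteum, and resident macrophages are rich in them.

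RNA of the corpus luteum, the progesterone-making gland left by the ovulated follicle, came from 2 adult female vervet monkeys (Chlorocebus sabaeus), both 16 years of age. Monkey 1031 was placed on calorie restriction and monkey 1030 was fed ad libitum, and each gave a sample 2 and a sample 1, with 1 array per sample. The design compared each animal with itself to follow a change of weight, and which number was taken first is not stated in the labels. With 1 animal per diet, diet and animal cannot be told apart.

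Changes within an animal are sample 2 minus sample 1, have no replicate and no test, and are called higher or lower at 2-fold as a rule of size. Across all 9888 genes at or above the median gene level (log2 5.26, the level filter), 1 array, ad libitum sample 2, lay apart, 2-fold from each other array in 912 to 1031 genes, whereas the other 3 arrays differed from each other in 122 to 333. Among the 49 lysosomal genes measured, 5 of them below the level filter, those counts were 4 to 7 and 0 to 1. Between the 2 ad libitum samples the count was 4 of 49 (8.16%), beside 9.25% of genes past the filter. The luteal markers STAR, which moves cholesterol into mitochondria, and CYP11A1, which makes pregnenolone there, lay above the level filter in all arrays. MRAP was below it in ad libitum sample 2 (4.79), and HSD17B1 in all arrays (4.18 to 5.17). Over 10 luteal markers the median log2 signal was 10.29 and 9.44 in calorie restriction samples 2 and 1 and 7.06 and 11.17 in ad libitum samples 2 and 1. In bulk tissue, fewer cells of a type and less RNA per cell cannot be told apart.

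Few lysosomal genes differed by 2-fold within an animal, and those that did were all in the ad libitum animal. In the calorie restriction animal none of the 49 reached 2-fold in either direction, where 0.349% of all genes were higher and 0.45% lower (0.799% either way), and 0.496% and 0.738% of genes past the level filter (1.23% either way). Their median change was -0.10, against 0.0028 over all genes, and 36 of 49 (73.5%) had a negative change, against 49.4% of all genes and 54.3% of those past the filter. In the ad libitum animal 1 gene, CTSK, was 2-fold higher and 3, NEU1, SMPD1 and SGSH, were 2-fold lower. Among all genes 1.96% were higher and 3.83% lower, and past the filter 2.67% and 6.58%, so that 4 of 49 (8.16%) is near the 5.79% and 9.25% found either way. The median change there was also -0.10, against 0.017 over all genes, and 31 of 49 (63.3%) were negative, against 47.6% of all genes and 51.4% of those past the filter. Without probe sets of less specific design (names ending in _x_at or _s_at), the ad libitum median was -0.032 and 20 of 39 genes (51.3%) were negative, beside 46.5% of all genes so measured and 49.0% of the brighter ones. After cyclic loess normalization that median was -0.042. The calorie restriction share without those probe sets was 71.8%, beside 49.6% and 54.8%.

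At a lower threshold of 1.5-fold, 4 lysosomal genes were higher and 11 lower in the ad libitum animal's sample 2. That is 8.16% and 22.4% of the 49, beside 7.04% and 9.28% of all genes and 9.54% and 15.2% of genes past the filter. In the calorie restriction animal only ARSB passed 1.5-fold, downward. There 1.63% of all genes were higher and 2.64% lower to that extent, and 2.01% and 3.93% of genes past the filter. Of the 49 genes, 44 passed the level filter, and CTSD, CTSO, MANBA, ARSB and LAMP3 did not. Whether these 5 were detected was not analysed.

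**Figure D1:**
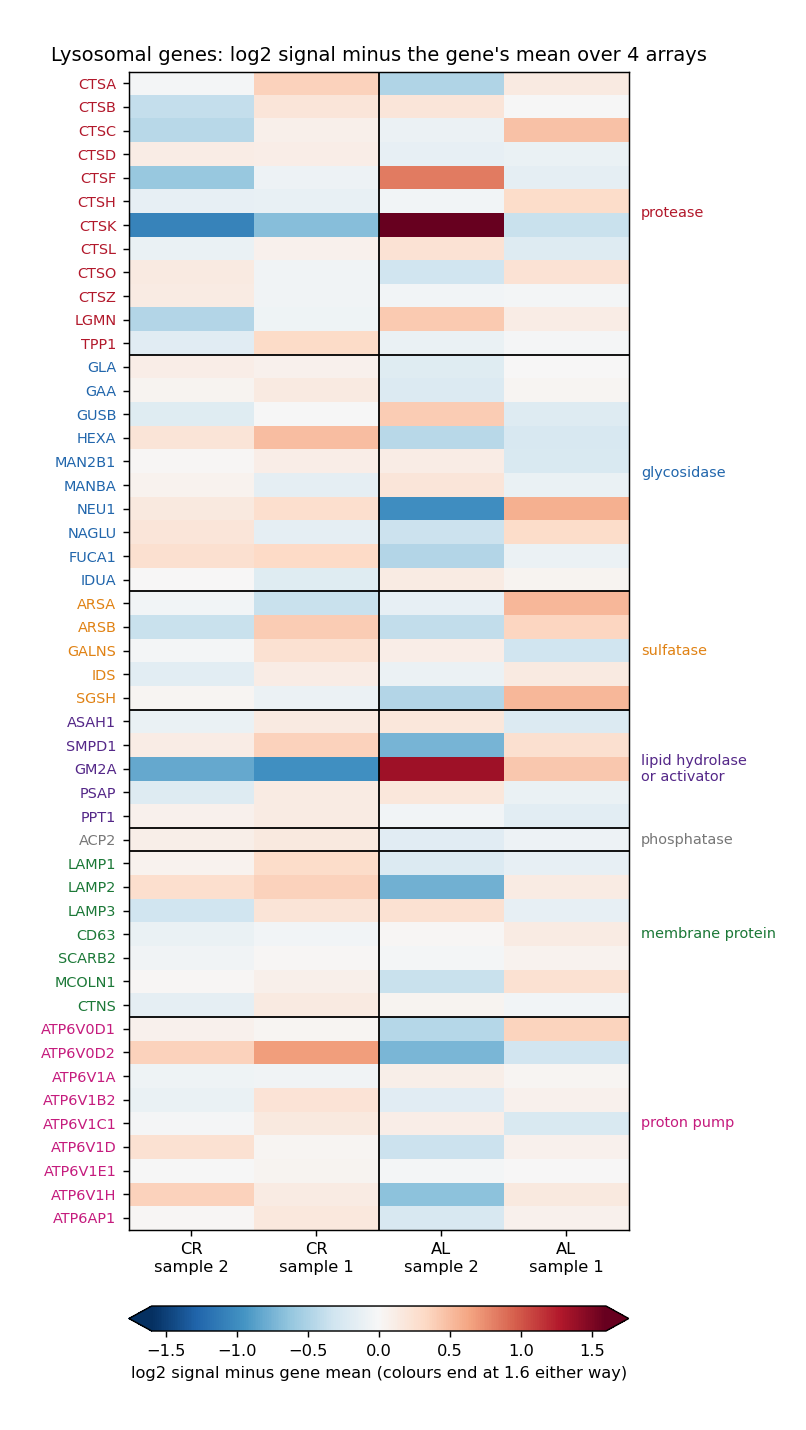
Heat map of 49 lysosomal genes (rows, by class) in the 4 arrays (columns, calorie restriction samples 2 and 1, then ad libitum samples 2 and 1), coloured by log2 signal minus the gene's own mean over the 4 arrays. CTSK and GM2A are deepest in the ad libitum sample 2 column, where they are high, and are low in both calorie restriction columns, while NEU1, SMPD1 and LAMP2 are low in ad libitum sample 2.

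Lysosomal proteases are mostly cathepsins, many of them papain-like cysteine proteases, which cut proteins within the acidic lumen. CTSK, a collagen-degrading cathepsin best known from osteoclasts, had log2 signals of 8.65 and 9.04 in calorie restriction samples 2 and 1, and of 11.84 and 9.37 in ad libitum samples 2 and 1. Ad libitum sample 2 was far above the other 3 arrays, which lay within 1 log2 unit of each other. Its change was -0.39 in the calorie restriction animal and 2.47, or 5.55-fold, in the ad libitum animal, and it rests on a single probe set. CTSF, another cysteine cathepsin, had 7.17 and 7.69 in calorie restriction samples 2 and 1 and 8.61 and 7.64 in ad libitum samples 2 and 1. It again was highest in ad libitum sample 2, though its change of 0.98 there stayed just under 2-fold.

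CTSB, a cathepsin that cuts both within proteins and from their ends, had 10.15 and 10.73 in calorie restriction samples 2 and 1 and 10.73 and 10.53 in ad libitum samples 2 and 1. Calorie restriction sample 2 was its lowest array, with a change of -0.57 against 0.20 in the ad libitum animal. All 5 CTSB probe sets were lower in sample 2 of the calorie restriction animal and higher in that of the ad libitum animal. Of the 12 proteases, 9 had a negative change in the calorie restriction animal, with a median of -0.39, and 7 in the ad libitum animal, with a median of -0.025. The median of the first animal came to -0.17 when all probe sets of a gene were averaged and to -0.071 without probe sets of less specific design.

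Further changes of proteases were under 2-fold in both animals. TPP1, a peptidase that trims tripeptides from protein ends, differed by -0.49 in the calorie restriction animal and -0.08 in the ad libitum animal, and the legumain gene LGMN, an asparagine-specific protease that activates cathepsins, by -0.40 and 0.30 in the same order. CTSA, a carboxypeptidase that also shields NEU1 and beta-galactosidase in a complex, had 10.18 and 10.58 in calorie restriction samples 2 and 1 and 9.74 and 10.37 in ad libitum samples 2 and 1. Sample 2 was the lower one in both, with changes of -0.40 and -0.63. The dipeptidase gene CTSC had changes of -0.54 and -0.56, but its 3 other probe sets gave -0.06 to 0.02 in the calorie restriction animal and -0.88 to 0.08 in the ad libitum animal. CTSL, a broad endopeptidase, had changes of -0.17 and 0.44, and CTSH, an aminopeptidase, -0.0029 and -0.34. CTSZ, a carboxypeptidase, differed by 0.20 and -0.02.

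**Figure D2:**
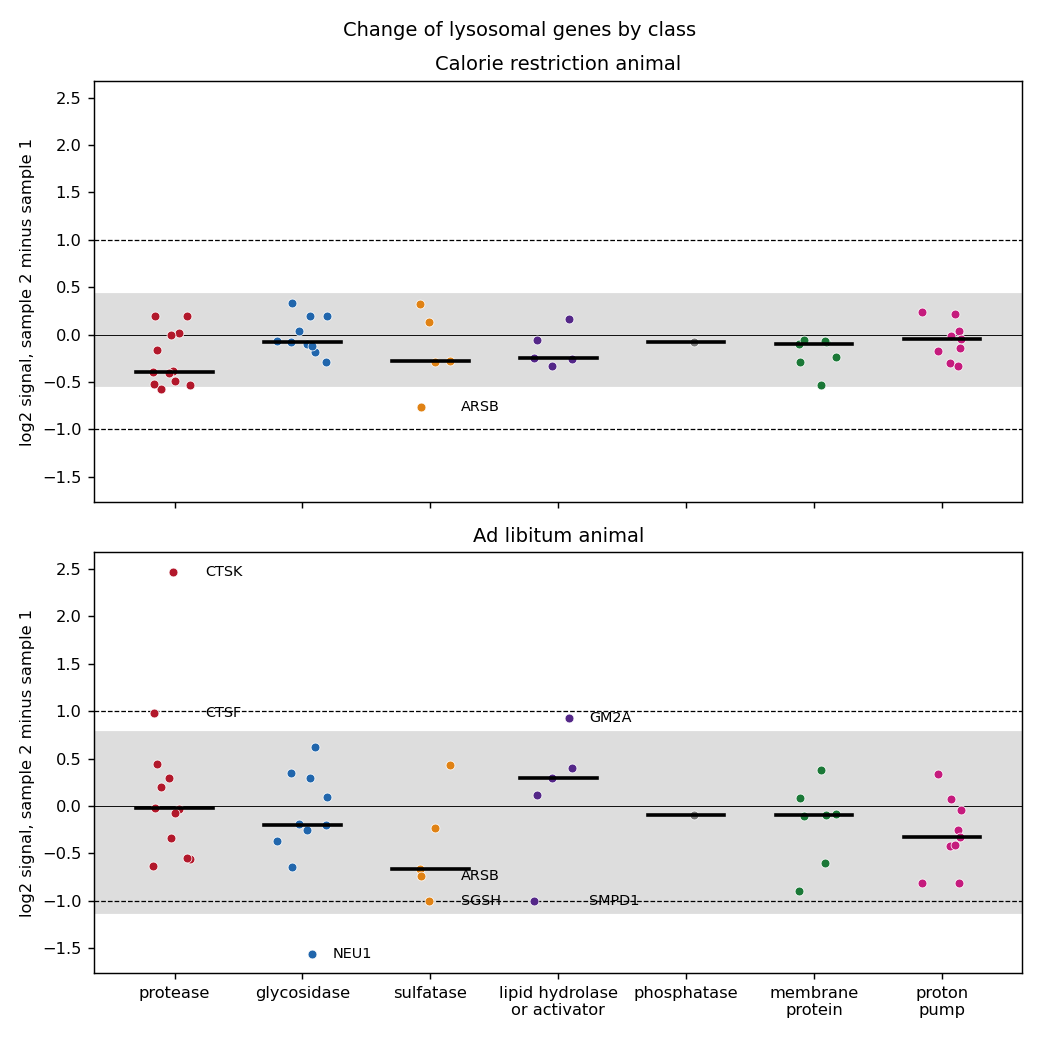
Change of each lysosomal gene (point; log2 signal, sample 2 minus sample 1) by class, for the calorie restriction animal above and the ad libitum animal below, with a bar at the median of each class, dashed lines at 2-fold and a grey band from the 5th to the 95th percentile of genes past the level filter. In the calorie restriction animal every point lies between -0.76 and 0.33, and in the ad libitum animal CTSK at 2.47 and NEU1 at -1.57 lie farthest from 0.

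Glycosidases remove sugars from glycoproteins, glycolipids and glycosaminoglycans, each from its own linkage. NEU1, the sialidase that removes terminal sialic acid and depends on CTSA for its stability, had log2 signals of 7.25 and 7.37 in calorie restriction samples 2 and 1, and of 6.10 and 7.66 in ad libitum samples 2 and 1. Ad libitum sample 2 was the low array, and the other 3 lay close together. The changes were -0.12 in the calorie restriction animal and -1.57, or 2.96-fold lower, in the ad libitum animal, again on a single probe set.

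GUSB, the beta-glucuronidase of glycosaminoglycan breakdown, had 9.77 and 9.95 in calorie restriction samples 2 and 1 and 10.37 and 9.76 in ad libitum samples 2 and 1, a change of 0.62 in the ad libitum animal on its brightest probe set and 0.61 on the other. NAGLU, a glucosaminidase of heparan sulfate breakdown, differed by 0.33 in the calorie restriction animal and -0.64 in the ad libitum animal. Its other, dimmer probe set gave -0.30 and 0.11, with both signs opposite. The remaining 7 glycosidases, GLA, GAA, HEXA, MAN2B1, MANBA, FUCA1 and IDUA, differed by less than 1.5-fold in both animals. FUCA1, which removes fucose, had 10.59 and 10.66 in calorie restriction samples 2 and 1 and 9.87 and 10.24 in ad libitum samples 2 and 1. Medians over the 10 measured glycosidases were -0.074 in the calorie restriction animal and -0.20 in the ad libitum animal.

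Sulfatases strip sulfate groups from glycosaminoglycans and sulfatide. SGSH, which acts on heparan sulfate, had 6.40 and 6.27 in calorie restriction samples 2 and 1, and 5.90 and 6.90 in ad libitum samples 2 and 1. Its change of -1.0 in the ad libitum animal only just passed 2-fold, and the other, dimmer probe set, below the level filter, gave -1.40 there, whereas the calorie restriction animal had 0.13 and 0.54. ARSA, which acts on sulfatide, had the same pair of signs, with 0.32 in the calorie restriction animal and -0.67 in the ad libitum animal, but its other probe set, below the level filter, gave 0.37 and -0.04.

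ARSB, which acts on dermatan and chondroitin sulfate, had 4.06 and 4.82 in calorie restriction samples 2 and 1 and 4.02 and 4.76 in ad libitum samples 2 and 1. It was the only lysosomal gene lower by 1.5-fold in both animals, as were 0.475% of all genes and 0.748% of those past the filter. It lay below the level filter, and its 3 other probe sets gave -0.52 to 0.07 in the calorie restriction animal and -0.08 to 0.20 in the ad libitum animal. IDS, which removes sulfate from iduronate, differed by -0.29 and -0.24 in these animals, and GALNS, which acts on keratan sulfate, by -0.28 and 0.43. Over the 5 sulfatases the median was -0.28 in the calorie restriction animal and -0.67 in the ad libitum animal, but with the mean of all probe sets it was 0.029 and -0.11.

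Lipid hydrolases and their activator proteins break down sphingolipids and lipid-modified proteins. GM2A, the activator that lifts ganglioside GM2 from the membrane for cleavage by hexosaminidase A, had 8.72 and 8.56 in calorie restriction samples 2 and 1 and 10.89 and 9.97 in ad libitum samples 2 and 1. The animals did not overlap, and within the ad libitum animal sample 2 was higher by 0.92, or 1.90-fold. That change was 0.40 with its 7 probe sets averaged, since they ranged from -0.11 to 0.92, and a negative one was past the level filter. SMPD1, the acid sphingomyelinase that makes ceramide, had 7.18 and 7.43 in calorie restriction samples 2 and 1 and 6.31 and 7.32 in ad libitum samples 2 and 1. Its brightest probe set was 2.01-fold lower in ad libitum sample 2 (-1.01), but the other 3, all below the level filter, gave -0.79, -0.24 and 0.55.

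The acid ceramidase ASAH1, which acts after SMPD1, differed by -0.26 in the calorie restriction animal and 0.40 in the ad libitum animal. PSAP, the precursor of the saposins that activate sphingolipid hydrolases, had 11.22 and 11.55 in calorie restriction samples 2 and 1 and 11.60 and 11.31 in ad libitum samples 2 and 1, so that its changes were -0.33 and 0.30. PPT1, which removes fatty acids from proteins, differed by -0.06 and 0.12. Of these 5 genes, 4 had a negative change in the calorie restriction animal and 4 a positive one in the ad libitum animal. The acid phosphatase gene ACP2 had 8.15 and 8.22 in calorie restriction samples 2 and 1 and 7.88 and 7.98 in ad libitum samples 2 and 1.

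**Figure D3:**
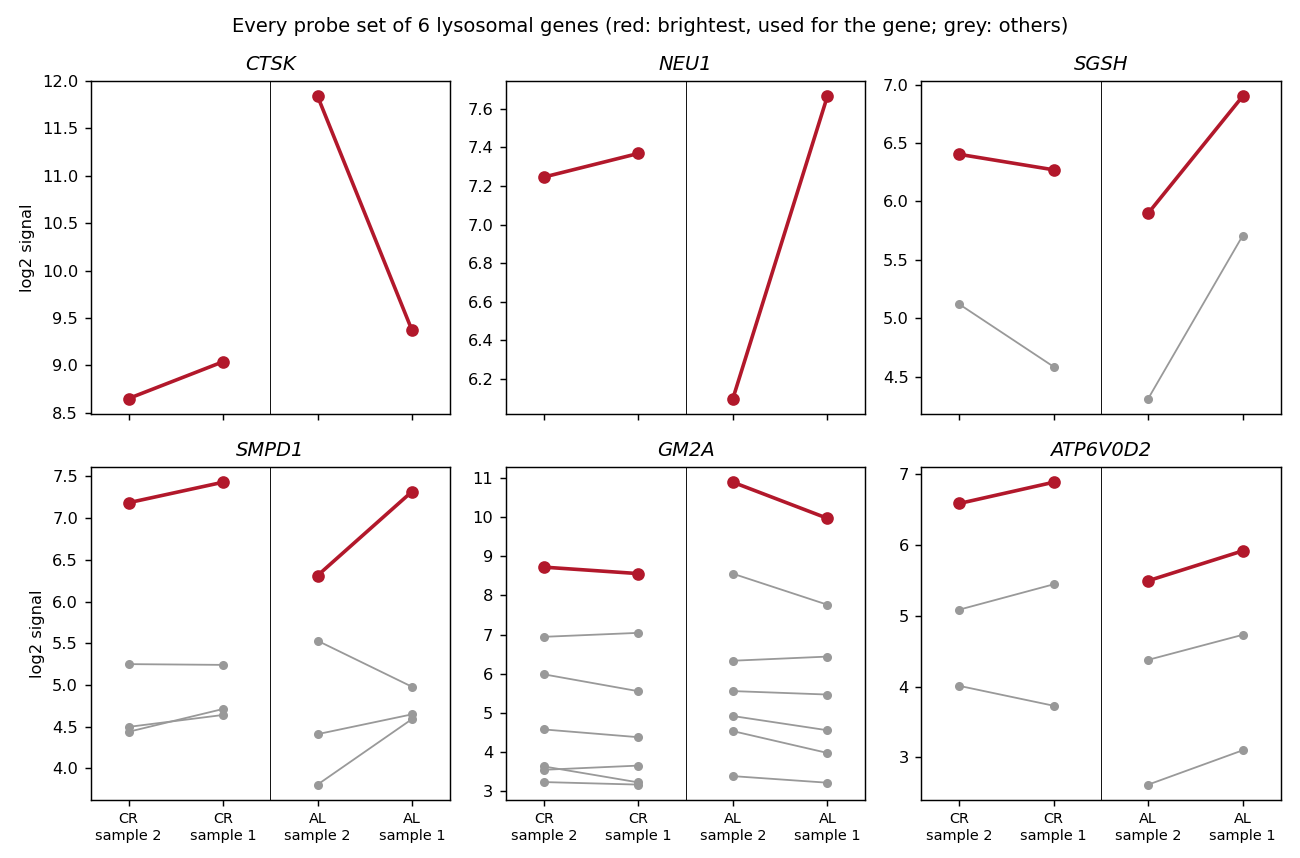
Log2 signal of every probe set of CTSK, NEU1, SGSH, SMPD1, GM2A and ATP6V0D2 in the 4 arrays, with samples of an animal joined (red, the brightest probe set, used for the gene; grey, the others). CTSK and NEU1 have 1 probe set each, SGSH has 2 that move alike in each animal, and the 4 of SMPD1 move in both directions in the ad libitum animal.

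The genes of lysosomal membrane proteins stayed under 2-fold in both animals. LAMP1 and LAMP2 are the abundant glycoproteins of the lysosomal wall, and LAMP2 also serves autophagy. LAMP2 had 10.19 and 10.29 in calorie restriction samples 2 and 1, and 9.15 and 10.05 in ad libitum samples 2 and 1. Its probe sets disagreed on the ad libitum change, with -0.89 for the brightest and 0.05 for the only other one past the level filter, beside -0.69 and -0.20 for 2 dimmer ones. MCOLN1, the calcium channel TRPML1, differed by -0.07 in the calorie restriction animal and -0.60 in the ad libitum animal. LAMP1 differed by -0.24 and -0.09, and the tetraspanin CD63 by -0.06 and -0.11, with 10.99 and 11.05 in calorie restriction samples 2 and 1 and 11.12 and 11.23 in ad libitum samples 2 and 1. SCARB2, which carries glucocerebrosidase to the lysosome, and CTNS, the cystine exporter, had changes between -0.29 and 0.09 on their brightest probe sets. The other SCARB2 probe sets, all past the level filter, gave -0.27, -0.43 and 0.02 in the calorie restriction animal. In the ad libitum animal they gave -0.44, -0.15 and 0.81. Other LAMP1 probe sets past the filter gave -0.33 and -0.46 in the calorie restriction animal and -0.44 and -0.38 in the ad libitum animal. All 7 membrane protein genes had a negative change in the calorie restriction animal, with a median of -0.099, and 5 in the ad libitum animal, with a median of -0.092.

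The proton pump has a membrane sector, V0, that passes protons and a cytosolic sector, V1, that splits ATP to drive it. None of the 9 pump genes reached 2-fold in either animal. ATP6V0D1, the widely expressed d subunit that joins both sectors, had 9.23 and 9.19 in calorie restriction samples 2 and 1 and 8.70 and 9.51 in ad libitum samples 2 and 1. ATP6V1H, the regulatory H subunit, had 8.77 and 8.53 in calorie restriction samples 2 and 1 and 7.75 and 8.56 in ad libitum samples 2 and 1. Both were lowest in ad libitum sample 2, with a change of -0.81 each against 0.03 and 0.23 in the calorie restriction animal.

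The other V1 genes were flatter on their brightest probe sets. ATP6V1A and ATP6V1B2, which form the catalytic ring, differed by -0.01 and -0.33 in the calorie restriction animal and by 0.07 and -0.26 in the ad libitum animal. ATP6V1E1, of the stalk, differed by -0.05 and -0.04, and ATP6V1D, of the central shaft, by 0.22 and -0.41. The next ATP6V1D probe set, also past the level filter, gave 0.25 and -0.72. Dimmer ones gave 0.47 and -0.16 in the calorie restriction animal and -0.45 and -0.21 in the ad libitum animal. ATP6V1C1 had -0.17 and 0.34 on its brightest probe set, but its 3 others gave -0.21 to 0.21 in the calorie restriction animal and -0.36 to -0.04 in the ad libitum animal. The accessory subunit gene ATP6AP1 had 9.26 and 9.40 in calorie restriction samples 2 and 1 and 8.98 and 9.31 in ad libitum samples 2 and 1. Pump medians were -0.047 in the calorie restriction animal and -0.32 in the ad libitum animal, with 6 and 7 of 9 negative.

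The class medians depended on the choice of probe sets, and no difference between classes was tested. On the brightest probe sets they ran from -0.39 for proteases to -0.047 for the pump in the calorie restriction animal and from -0.67 for sulfatases to 0.30 for lipid hydrolases and activators in the ad libitum animal. Of the 14 medians, 5 moved by over 0.10 when the probe sets of a gene were averaged and 7 without those of less specific design. The lowest then were -0.17 (proteases and membrane proteins) and -0.25 (membrane proteins) in the calorie restriction animal, and -0.32 and -0.24 (both the pump) in the ad libitum animal. In the 2 animals together, 21 of 49 genes (42.9%) were negative in both, beside 21.8% of all genes and 24.1% of genes past the filter. This count depends on the share negative in each animal alone, 73.5% with calorie restriction and 63.3% ad libitum. Over the 49 genes the changes of the animals had r = -0.23. A limma fit over the 4 arrays, blocked by animal, asked for a change shared by the animals. In it 0 of 44 lysosomal genes tested had a Benjamini-Hochberg adjusted p under 0.05, as did 0 of 9888 genes. At an unadjusted p of 0.05, 0 of 44 passed, where 1.82% of all genes tested did. For an opposed change 0 passed the adjusted threshold, and 2, CTSF and CTSK, had an unadjusted p under 0.05, where 7.46% of all genes tested did.

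**Figure D4:**
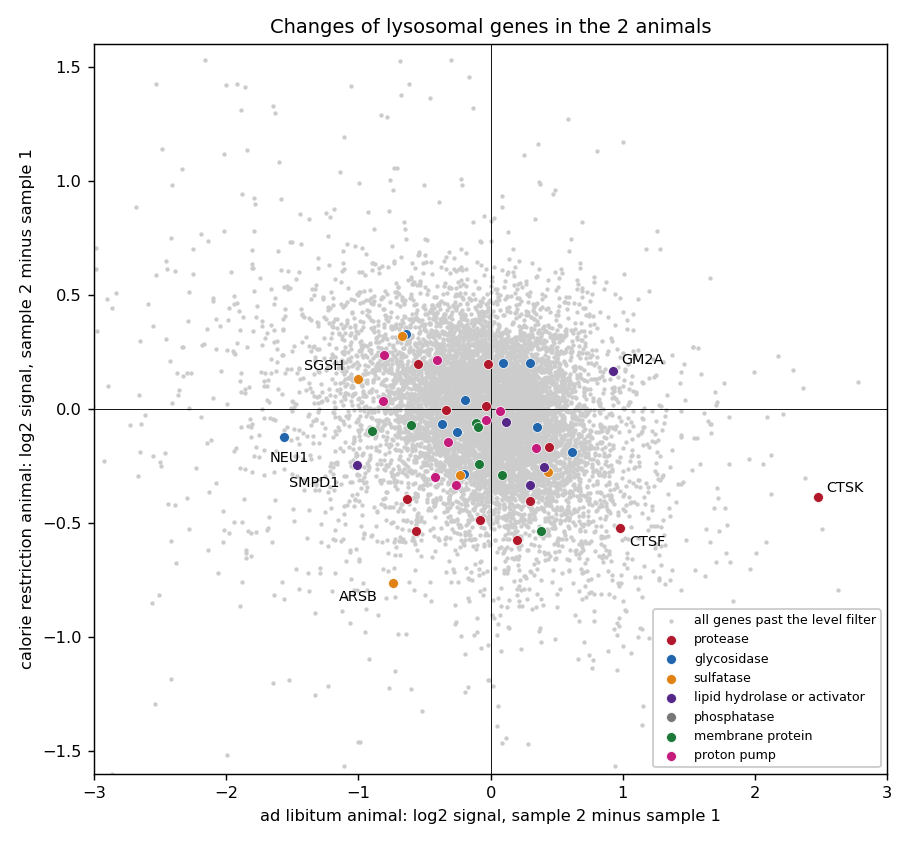
Change in the ad libitum animal (x axis) against change in the calorie restriction animal (y axis), both as log2 signal of sample 2 minus sample 1, for lysosomal genes (coloured by class) over all genes past the level filter (grey; 67 of 9888 lie outside the axes). CTSK stands out to the right and NEU1 to the left, and no lysosomal gene is beyond 1 on the y axis.

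Between the animals, the question was whether lysosomal genes differed with diet, which here is also a difference of animal. Both calorie restriction samples lay above both ad libitum samples for 10 of 49 genes and below them for 7, beside 18.3% and 17.5% of all genes and 16.6% and 18.7% of those past the filter. Means were also 2-fold apart for 1 gene above, ATP6V0D2, and 2 below, GM2A and CTSK. That was so for 0.991% and 0.986% of all genes (1.98% either way) and for 1.81% and 1.27% of those past the filter (3.08% either way). Without the ad libitum animal's sample 2, the calorie restriction samples lay above the remaining one for 16 genes and below it for 17, beside 36.1% and 34.5% of all genes. Of these, 1 was also 2-fold apart, GM2A, as were 1.72% of all genes.

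GM2A averaged 8.64 in the calorie restriction animal and 10.43 in the ad libitum animal (n = 2 arrays each). The difference was -1.79 ± 0.36 (SE), or 3.46-fold lower in the calorie restriction animal. Each SE here and below is limma's, which draws on the spread of other genes. It reflects repeat samples of an animal, not replicate animals. All 7 GM2A probe sets had a lower mean in the calorie restriction animal, and for 6 of them the animals did not overlap. Those with mean signals of 4.99, 4.08, 3.92 and 3.25 lay below the level filter. Against ad libitum sample 1 alone the difference was -1.33. ATP6V0D2, the d subunit known from osteoclasts and kidney, went the other way, with 6.59 and 6.89 in calorie restriction samples 2 and 1 and 5.50 and 5.92 in ad libitum samples 2 and 1. Its difference was 1.03 ± 0.23 (SE), and all 3 probe sets showed the calorie restriction animal higher without overlap. The brightest had a mean signal of 6.22, and those at 4.91 and 3.36 lay below the level filter. Its relative ATP6V0D1 differed by 0.11 with overlapping samples.

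CTSK was 3.39-fold lower in the calorie restriction animal (-1.76 ± 0.83, SE), which rested on ad libitum sample 2: against sample 1 alone the difference was -0.52. HEXA, the alpha subunit of the hexosaminidase that GM2A serves, was 0.70 ± 0.22 (SE) higher in the calorie restriction animal, with 9.45 and 9.73 in its samples 2 and 1 and 8.79 and 8.99 in ad libitum samples 2 and 1. Of the 4 HEXA probe sets, 2 showed the animals apart in that direction and 2 had the opposite sign. The dimmer of the first 2 had a mean signal of 3.17, below the level filter, and a difference of 0.17. The only other HEXA probe set past the filter differed by -0.05, with overlapping samples.

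None of these differences passed the test. With limma over 9888 genes, 0 had a Benjamini-Hochberg adjusted p under 0.05 between the animals, and the adjusted p was 0.706 for GM2A and ATP6V0D2, 0.859 for HEXA and 0.883 for CTSK. At an unadjusted p of 0.05, 3 of 44 lysosomal genes tested (GM2A, ATP6V0D2 and HEXA) passed, where 5.28% of all genes did. The residual behind these p-values is the difference between an animal's own samples, which limma combines with the spread of other genes. The p-values therefore say nothing of the spread among animals on a diet. With ad libitum sample 1 left out, so that sample 2 stood for that animal, 3 lysosomal genes passed, CTSK (-3.0, adjusted p = 0.0140), GM2A (-2.25, adjusted p = 0.0161) and NEU1 (1.21, adjusted p = 0.0406) in limma, as did 4.79% of all genes tested. The ad libitum animal then had 1 array, assumed to vary like those of the other animal.

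A further 103 genes of lysosome biology, in 6 lists, were listed besides, of which 90 were measured. In the calorie restriction animal none of the 90 was 2-fold apart, where 0.799% of all genes and 1.23% of those past the level filter were. The median of the 90 there was -0.052. The lists were chosen with earlier results of these data known, which limits a comparison of shares. In the ad libitum animal 1.96% of all genes were 2-fold higher and 3.83% lower, and 2.67% and 6.58% of those past the level filter. There 6 of the 90 (6.67%) were higher and 3 (3.33%) lower, with a median of 0.079. Higher were CTSS (1.77), a cathepsin of antigen-presenting cells that stays active at neutral pH, and RNASET2 (1.04), an acid ribonuclease, among 20 other hydrolases, of which HYAL2 (-1.01) and PRCP (-1.04) were lower. The glycoprotein gene GPNMB (1.51) and the nucleoside transporter SLC29A3 (1.24) were higher and OSTM1 (-1.15), the partner of the chloride transporter CLC-7, was lower among 23 other membrane proteins.

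CSTA, or cystatin A, an inhibitor of cysteine cathepsins, had 6.92 and 6.22 in calorie restriction samples 2 and 1 and 8.71 and 7.42 in ad libitum samples 2 and 1, and was the only one of 6 inhibitors 2-fold higher (1.28). RRAGD, a Rag GTPase of nutrient signalling at the lysosome, was 2-fold higher (1.66) among 15 genes of the TFEB family and nutrient signalling. MITF, a transcription factor of that family, differed by -0.63 in the calorie restriction animal and 0.64 in the ad libitum animal. In the same order TFEB differed by -0.096 and 0.31, TFE3 by -0.0022 and -0.016, and TFEC by -0.17 and 0.74. None of 13 targeting and activation genes and none of 13 other pump subunits was 2-fold apart in either animal. For CTSS, GPNMB, SLC29A3 and RRAGD the calorie restriction animal had the opposite sign, at -0.44, -0.94, -0.61 and -0.58.

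**Figure D5:**
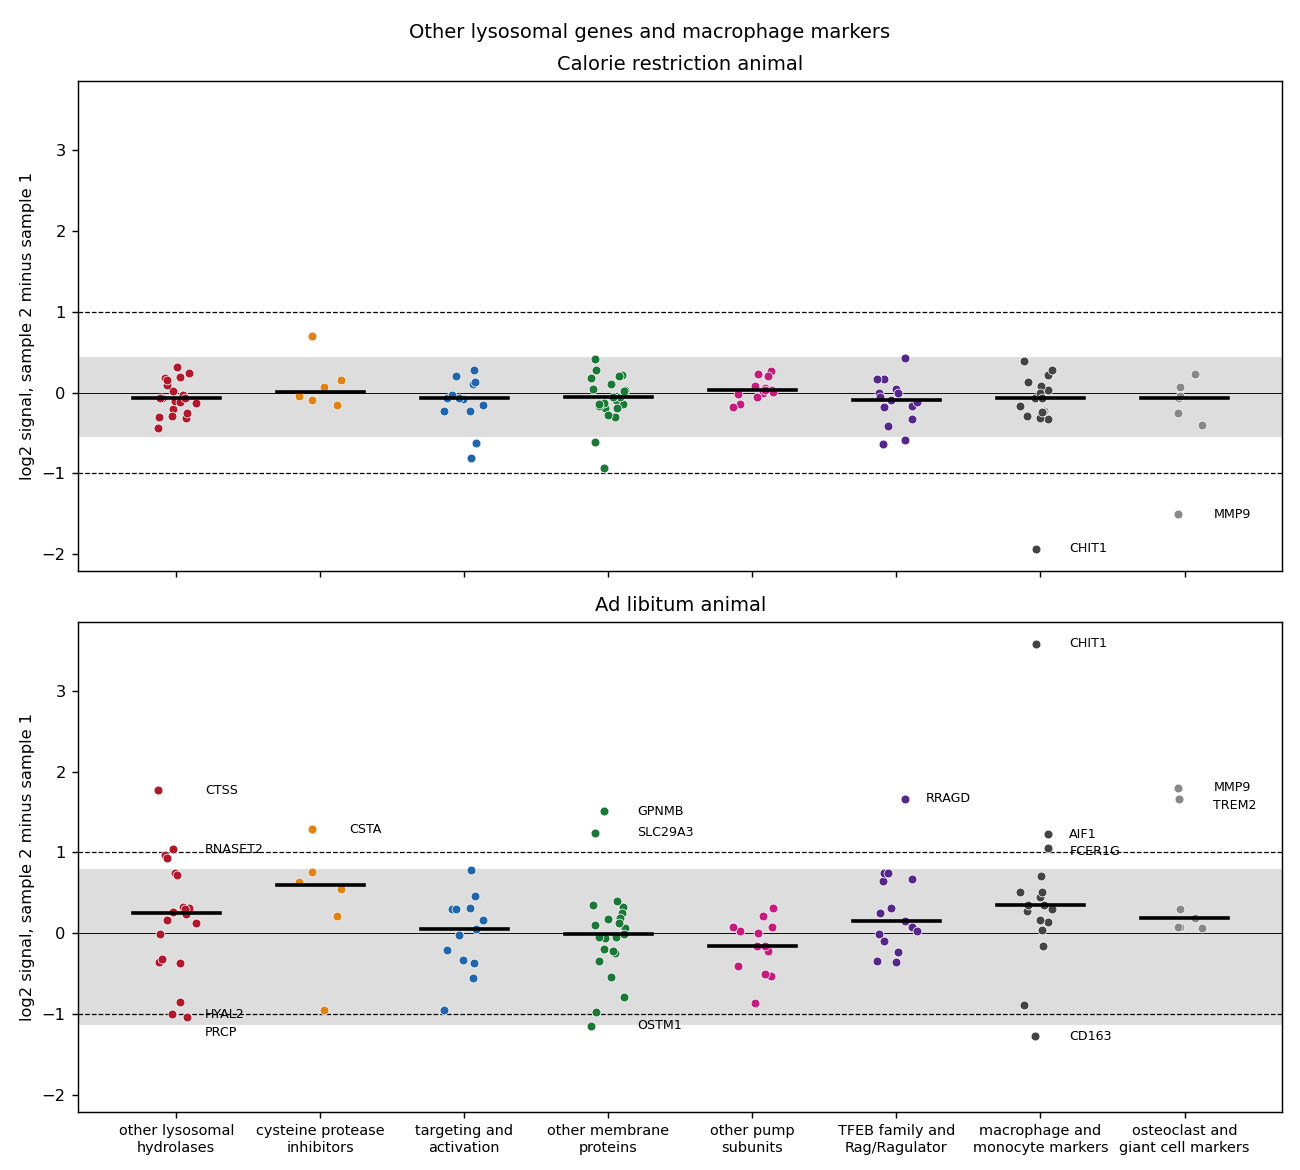
Change (log2 signal, sample 2 minus sample 1) of 90 other lysosomal genes in 6 lists and of 2 lists of macrophage markers, calorie restriction animal above and ad libitum animal below, with bars at list medians, dashed lines at 2-fold and a grey band from the 5th to the 95th percentile of genes past the level filter. CTSS, RRAGD, GPNMB and CHIT1 lie above the band in the ad libitum animal, where CD163 lies below it.

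Some macrophage markers were, like CTSK, higher in ad libitum sample 2. Of 17 macrophage and monocyte markers, none was 2-fold higher and 1 lower in the calorie restriction animal's sample 2, and 3 were higher and 1 lower in that of the ad libitum animal. Among all genes 0.349% were higher and 0.45% lower in the calorie restriction animal, and 1.96% and 3.83% in the ad libitum animal. Past the level filter these shares were 0.496% and 0.738%, and 2.67% and 6.58%. This list too was chosen with earlier results of these data known. The list had a median change of -0.063 in the calorie restriction animal and 0.35 in the ad libitum animal. CHIT1, a chitinase of lipid-laden macrophages, had 4.02 and 5.95 in calorie restriction samples 2 and 1 and 11.51 and 7.93 in ad libitum samples 2 and 1. CD163, a haemoglobin scavenger receptor, was 2-fold lower in ad libitum sample 2 (-1.28), AIF1 (1.23) and FCER1G (1.05) were 2-fold higher, and CSF1R (0.35), CD14 (0.14) and the mannose receptor gene MRC1 (-0.89) were neither. The sum of linear signals over the list came to 5375 and 5235 in calorie restriction samples 2 and 1 and 8530 and 4274 in ad libitum samples 2 and 1, and 2 of its 17 genes lay below the level filter. Such a sum is weighted by the brightness of the probe sets. Without CHIT1 it came to 5359 and 5173 in calorie restriction samples 2 and 1 and 5607 and 4030 in ad libitum samples 2 and 1, so that CHIT1 carried most of the ad libitum difference.

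A list of osteoclast and giant cell markers, with 7 measured, had MMP9 (-1.51) 2-fold lower in the calorie restriction animal and TREM2 (1.66) and MMP9 (1.80) 2-fold higher in the ad libitum animal, but the defining genes CALCR, DCSTAMP and TNFRSF11A lay below the level filter. Luteal steroidogenic markers had the opposite signs, with 9 of 10 2-fold lower in ad libitum sample 2 and 5 of 10 2-fold higher in calorie restriction sample 2. Summed on the linear scale they gave 20134 and 11990 in calorie restriction samples 2 and 1 and 4344 and 30682 in ad libitum samples 2 and 1. Endothelial markers had a median change of -0.22 in the calorie restriction animal and -0.85 in the ad libitum animal, with 6 of 13 2-fold lower in the ad libitum animal. The part of these cell types in the lysosomal changes was not tested.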

How the data were processed

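Each array gave a log2 signal for every probe set, which the authors made with Affymetrix Power Tools and RMA, per the submitters' processing notes (versions not given in the sources used here). Detection calls were not analysed, and 4 arrays limit the precision. Probe sets were designed on human genes, and mismatches to vervet sequence can lower a signal. Of 54675 probe sets, 62 controls were left out and 41091 with 1 symbol in the platform annotation were used; 50 of 51 member symbols were found in the RefSeq annotation of mChlSab1.0.hap1. A gene's brightest probe set by mean represented it. Of the 49 measured genes, 27 had several probe sets.

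The tests used limma 3.58.1 (lmFit, eBayes with trend, Benjamini-Hochberg adjustment over 9888 genes) in R 4.3.3, tested on simulated data. The fits for common and opposed changes leave 1 residual degree of freedom. The opposed coefficient is the mean of the ad libitum change and the sign-turned calorie restriction change. Members and lists were chosen with earlier results of these data known. Named genes were those 1.5-fold or more apart in an animal, those 2-fold apart between animals without overlap, and the brightest of each class; HEXA and other genes under those limits were added after their values were seen. Sequences were not used here. Alternatives were the mean of all probe sets, leaving out probe sets ending in _x_at or _s_at, cyclic loess, other filters and thresholds, no trend, the sample number as a block and leaving out each array.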

Additional observations from a re-analysis of the deposited data

Results flagged for a closer look

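There were 2 lysosomal genes that were 2-fold apart in the ad libitum animal and had a change of opposite sign in the calorie restriction animal. CTSK differed by -0.39 in the calorie restriction animal and 2.47 in the ad libitum animal, so that the changes differed by 2.86. In the limma fit for an opposed change its unadjusted p was 0.036 and its adjusted p 0.656. SGSH differed by 0.13 in the calorie restriction animal and -1.0 in the ad libitum animal, a difference of -1.13 between the changes, with an unadjusted p of 0.089 and an adjusted p of 0.673 in the same fit. That fit assumes no common change and has 1 residual degree of freedom.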

How the results depend on the processing

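In the ad libitum animal, 1 lysosomal gene was 2-fold higher and 3 were 2-fold lower. At 1.5-fold these counts were 4 and 11, after cyclic loess 2 and 1, and of the 33 members past the 75th percentile of level 1 was lower. Without probe sets ending in _x_at or _s_at 0 were higher, since the only CTSK probe set is one of those left out. CTSF came to 1.03 after cyclic loess, while SGSH (-0.999) and SMPD1 (-0.98) came just under 2-fold. SMPD1 reversed to 0.55 without the less specific probe sets and was -0.37 when all its probe sets were averaged. In the calorie restriction animal 1 gene was lower at 1.5-fold. Over the alternatives, added for this share after seeing the data, 65.3% to 84.8% of members were negative in the calorie restriction animal, against 73.5%. In the ad libitum animal 51.3% to 63.6% were, against 63.3%. The 65.3% came with all probe sets averaged, beside 48.8% of all genes and 51.7% of the brighter ones. The 84.8% was for the 33 members past the 75th percentile of level, where the share of all genes was not computed. The median of all members was -0.12 to -0.073 in the calorie restriction animal and -0.10 to -0.032 in the ad libitum animal.

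For the difference between animals, 0 members passed the adjusted threshold and 3 an unadjusted p of 0.05; leaving out 1 array at a time gave 0 to 3, with 3 only without ad libitum sample 1. For the opposed change 0 passed and 2 did so unadjusted. No other alternative called a member in these fits or in that for the common change. With the sample number as a replicate block 0 were called. Across 9888 genes the changes of the animals had r = -0.27, from which it cannot be told whether sample numbers pair the arrays. With the crossed pairing, added after seeing the data, 0 were called. Leaving out an array removes the residual of the common and opposed fits, so these were not run.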
